A study of Mus musculus with 18 samples.

Results

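The 8 genes described here, Gata1, Klf1, Nfe2, Tal1, Gfi1b, Lmo2, Hemgn and Epor, encode nuclear factors of red cell development and the receptor of erythropoietin. They were chosen by name, and every probe set annotated with 1 of these symbols was read, which gave 1 probe set for each gene, out of 18193 genes on 45037 probe sets. RNA of 18 whole mouse embryos of embryonic day 9.5, on a mixed 129SvEv and C57Bl/6 background, had been hybridised to Affymetrix 430 2.0 mouse arrays, a single embryo to each. Embryos differed in the alleles of Tbx1, a T-box gene of the pharyngeal apparatus: the null allele (-), the alleles Neo and Neo2, and the wild-type allele (+). There were 2 embryos of each of 9 genotypes. The genotypes -/-, Neo/Neo, Neo2/-, Neo2/Neo and Neo2/Neo2 hold 0 wild-type alleles, +/-, Neo/+ and Neo2/+ hold 1, and WT holds 2. The labels name no other treatment and no cell type that limits an allele.

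Primitive red cells of the mouse arise in the yolk sac and enter the embryo's vessels as the heart starts to beat, so the blood of a whole embryo at this stage consists mostly of them. Tal1 and Lmo2 act in a complex with GATA factors in blood and endothelial precursors, Gata1 and Klf1 then switch on globin, haem and membrane genes, and signalling through Epor, by way of Jak2 and Stat5, supports survival of the maturing cells. In bulk RNA, fewer red cells and less RNA per red cell cannot be told apart, and this holds for every level below.

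GATA factors bind short words around the letters GATA, and Klf1 binds CACC-type words, so the promoters are shown beside the levels. The word GATA, with A or T just before it and A or G just after it, was searched on both strands in the windows of 250 bases before to 50 bases after the gene start, from RefSeq on GRCm38.p6. A second motif, CCNCNCCC, was searched the same way, and 0 of the 6 GATA words found overlapped a match of it. The table held 7 windows for 6 of the genes, with 2 for Tal1, and none for Nfe2 and Lmo2. At least 1 GATA word was present in 5 of the 7 windows and in 29.8% of all 32851 windows. The second motif, the kind of word read by Klf1 and related factors, was present in 5 of the 7 windows and in 49.5% of all. The 4 windows printed belong to Hemgn, Klf1, Epor and Gfi1b, each of which holds a GATA word, with the words in capitals. The Hemgn window (chr4:46404134-46404433, minus strand) holds 2 words, which start at -13 and 28 from the gene start. Those of Klf1 (chr8:84901732-84902031, plus strand), Epor (chr9:21963527-21963826, minus strand) and Gfi1b (chr2:28621933-28622232, minus strand) hold 1 each, at -80, -54 and -120. A match describes the letters and is not a bound site.
Hemgn: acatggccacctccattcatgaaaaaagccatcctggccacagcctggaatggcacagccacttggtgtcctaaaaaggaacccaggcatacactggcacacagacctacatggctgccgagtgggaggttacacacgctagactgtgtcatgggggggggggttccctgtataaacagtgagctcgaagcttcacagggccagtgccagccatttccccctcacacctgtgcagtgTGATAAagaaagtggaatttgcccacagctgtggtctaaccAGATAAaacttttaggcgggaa
Klf1: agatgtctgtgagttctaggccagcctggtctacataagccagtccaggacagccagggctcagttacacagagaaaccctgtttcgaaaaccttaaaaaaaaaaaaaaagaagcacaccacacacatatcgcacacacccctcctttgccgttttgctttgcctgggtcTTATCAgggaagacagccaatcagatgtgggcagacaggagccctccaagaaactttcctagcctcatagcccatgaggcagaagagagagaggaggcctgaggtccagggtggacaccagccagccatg
Epor: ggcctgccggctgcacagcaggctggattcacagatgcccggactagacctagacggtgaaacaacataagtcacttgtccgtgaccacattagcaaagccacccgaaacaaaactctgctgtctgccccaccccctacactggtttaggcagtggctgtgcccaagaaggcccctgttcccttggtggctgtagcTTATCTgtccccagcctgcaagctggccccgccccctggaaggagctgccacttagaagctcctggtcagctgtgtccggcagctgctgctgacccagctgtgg
Gfi1b: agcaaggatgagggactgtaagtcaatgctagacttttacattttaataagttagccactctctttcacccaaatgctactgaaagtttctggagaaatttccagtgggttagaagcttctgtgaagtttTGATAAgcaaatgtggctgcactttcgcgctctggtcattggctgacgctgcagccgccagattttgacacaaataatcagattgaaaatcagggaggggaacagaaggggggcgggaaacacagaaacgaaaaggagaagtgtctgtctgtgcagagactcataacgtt

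Some facts of the whole series bear on the values. Tbx1 had signals of 4.98 and 5.16 (log2) in -/- and 5.04 and 5.20 in Neo/Neo embryos, against 6.54 and 6.63 in WT, and the arrays labelled Neo2/Neo2 were at 6.62 and 6.62. That is the WT level, above the 5.65 and 5.67 of Neo2/Neo and the 5.61 and 5.81 of Neo2/-, which hold 1 Neo2 allele, so Tbx1 does not bear out the Neo2/Neo2 label. Whether the label is wrong was not tested, the labels were kept, and Neo2/Neo2 below means the 2 arrays so labelled. Whether that probe set lies outside the part removed in the null allele was not tested. In an earlier analysis 2 arrays stood apart, those of +/- replicate 1 and -/- replicate 1, and the results that rest on them are given with all 18 arrays and with the remaining 16. Read from Xist and genes of the Y chromosome, the embryos split into 9 females and 9 males. The -/- and WT pairs had only females, Neo2/Neo2 and Neo/Neo only males, and the others 1 of each. The reading was less clear for +/- replicate 1, called female, with Xist at 10.16 and the Y genes at 4.25 (log2). All other females had Xist at 11.41 or more and the Y genes at 3.46 or less. Tbx1 was at 6.61 in +/- replicate 1, near WT, and at 6.13 in +/- replicate 2. The cause of these values was not tested. Gata1 lies on the X chromosome. The embryonic globin genes Hbb-y, Hbb-bh1 and Hba-x, the defining products of primitive red cells, averaged 14.25, 14.20 and 13.92 (log2), while the probe sets of other red cell products went down to 3.84 (Hba-a1).

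Tal1 encodes the bHLH factor of early blood cells, and its signal (log2, replicates 1 and 2) was 8.30 and 7.05 in -/-, 7.46 and 7.45 in Neo/Neo, 7.64 and 7.91 in Neo2/-, 7.81 and 7.86 in Neo2/Neo and 7.50 and 7.36 in Neo2/Neo2 embryos. With a wild-type allele it was 7.51 and 7.39 in +/-, 7.76 and 7.17 in Neo/+ and 6.96 and 7.09 in Neo2/+, against 7.66 and 7.75 in WT. The lowest arrays were those of Neo2/+ and replicate 2 of -/-, the highest was replicate 1 of -/-, and WT lay in the upper part of the range.

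Gata1, the GATA factor of the red cell line, had 7.43 and 6.61 in -/-, 6.80 and 6.76 in Neo/Neo, 6.81 and 7.26 in Neo2/-, 7.14 and 6.81 in Neo2/Neo and 6.73 and 6.35 in Neo2/Neo2 embryos. With a wild-type allele it was 6.69 and 6.53 in +/-, 6.73 and 6.66 in Neo/+ and 6.36 and 6.23 in Neo2/+, against 7.08 and 6.95 in WT. The 3 lowest arrays were both of Neo2/+ and replicate 2 of Neo2/Neo2. All Neo/Neo, +/- and Neo/+ embryos lay below both WT embryos, and the -/-, Neo2/- and Neo2/Neo pairs overlapped WT.

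Klf1 encodes the zinc finger activator of globin and haem genes, and its signal was 9.45 and 7.95 in -/-, 8.41 and 8.29 in Neo/Neo, 8.68 and 9.06 in Neo2/-, 8.88 and 8.87 in Neo2/Neo and 8.21 and 8.15 in Neo2/Neo2 embryos. With a wild-type allele it was 8.21 and 8.16 in +/-, 8.64 and 8.26 in Neo/+ and 8.07 and 7.87 in Neo2/+, against 8.61 and 8.81 in WT. The Neo2/Neo and Neo2/- embryos were above WT in all but 1 array, and Neo2/+, +/- and Neo2/Neo2 were below it in all arrays.

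Nfe2, a bZIP subunit that acts at globin enhancers, had 6.97 and 5.95 in -/-, 6.22 and 6.23 in Neo/Neo, 6.36 and 6.58 in Neo2/-, 6.77 and 6.76 in Neo2/Neo and 6.33 and 5.93 in Neo2/Neo2 embryos. With a wild-type allele it was 6.57 and 6.11 in +/-, 6.46 and 5.99 in Neo/+ and 6.04 and 5.94 in Neo2/+, against 6.57 and 6.67 in WT. Apart from replicate 1 of -/-, both Neo2/Neo embryos were the highest, and the lowest array was replicate 2 of Neo2/Neo2.

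Gfi1b, a zinc finger repressor of red cells and megakaryocytes, had 6.74 and 6.16 in -/-, 6.50 and 6.49 in Neo/Neo, 6.49 and 6.63 in Neo2/-, 6.78 and 6.61 in Neo2/Neo and 6.45 and 6.17 in Neo2/Neo2 embryos. With a wild-type allele it was 6.51 and 6.02 in +/-, 6.38 and 6.54 in Neo/+ and 6.39 and 6.22 in Neo2/+, against 6.80 and 6.39 in WT. The WT embryos lay far apart, one of them the highest of all, and the lowest array was replicate 2 of +/-.

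Epor, the receptor through which erythropoietin acts, had 7.85 and 7.09 in -/-, 7.44 and 7.51 in Neo/Neo, 7.62 and 7.80 in Neo2/-, 7.81 and 7.57 in Neo2/Neo and 7.61 and 7.22 in Neo2/Neo2 embryos. With a wild-type allele it was 7.50 and 7.38 in +/-, 7.62 and 7.23 in Neo/+ and 7.13 and 7.06 in Neo2/+, against 7.92 and 7.64 in WT. Both Neo2/+ embryos and replicate 2 of -/- were the lowest 3 arrays, and the WT pair had the highest mean.

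Hemgn, which encodes hemogen, a nuclear protein of blood-forming cells, had the widest range of the 8 genes. Its signal was 8.09 and 7.43 in Neo2/Neo2 embryos, against 9.81 and 9.78 in Neo2/Neo. It was 9.58 and 7.53 in -/-, 8.64 and 8.44 in Neo/Neo and 9.07 and 9.20 in Neo2/- embryos. Both Neo2/Neo2 values lay below both Neo2/Neo values, and the -/- pair reached from near the lowest to near the highest array. The embryos with 1 wild-type allele had 7.58 and 8.19 in +/-, 8.63 and 8.22 in Neo/+ and 8.21 and 8.07 in Neo2/+, against 9.20 and 9.10 in WT. All 6 of these lay below both WT embryos.

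On the arrays labelled Neo2/Neo2 against Neo2/Neo, genotypes whose labels differ by a Neo2 in place of a Neo allele, Hemgn fell by 2.04 on the log2 scale (SE 0.46, a 4.10-fold difference; adjusted p = 0.0400 in limma, n = 2 each). This pair of genotypes was chosen as the extremes of maturity in these same data, with results known, so its p-values are not those of an independent choice. Hemgn was the 1 gene of the 8 called, where 2.65% of all probe sets were called, at a Benjamini-Hochberg adjusted p under 0.05. The call was lost in 14 of the 18 fits without 1 array, with adjusted p-values up to 0.290, and held in the 4 without an array of -/- or +/-. It was also lost with embryo sex in the fit (-2.13, adjusted p = 0.0660). Without the 2 arrays that stood apart, Hemgn, Klf1 and Nfe2 fell by 2.04, 0.70 and 0.63 (adjusted p = 0.000799, 0.0146 and 0.0264), where 11.1% of all probe sets were called. With all arrays, Klf1 and Nfe2 had the same differences with adjusted p-values of 0.300 and 0.238.

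Both Neo2/Neo2 embryos lay below both Neo2/Neo embryos for 6 of the 8 genes, as for 25.2% of all probe sets, and above them for Lmo2 (34.2% of probe sets), and the pairs overlapped for Epor. The differences of the other 5 genes were -0.43 for Gata1, -0.41 for Tal1, -0.39 for Gfi1b, -0.28 for Epor and 0.24 for Lmo2, and none passed the test. Over the 8 genes the median difference was -0.42, with 7 negative, and over all probe sets it was 0.04.

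**Figure D1:**
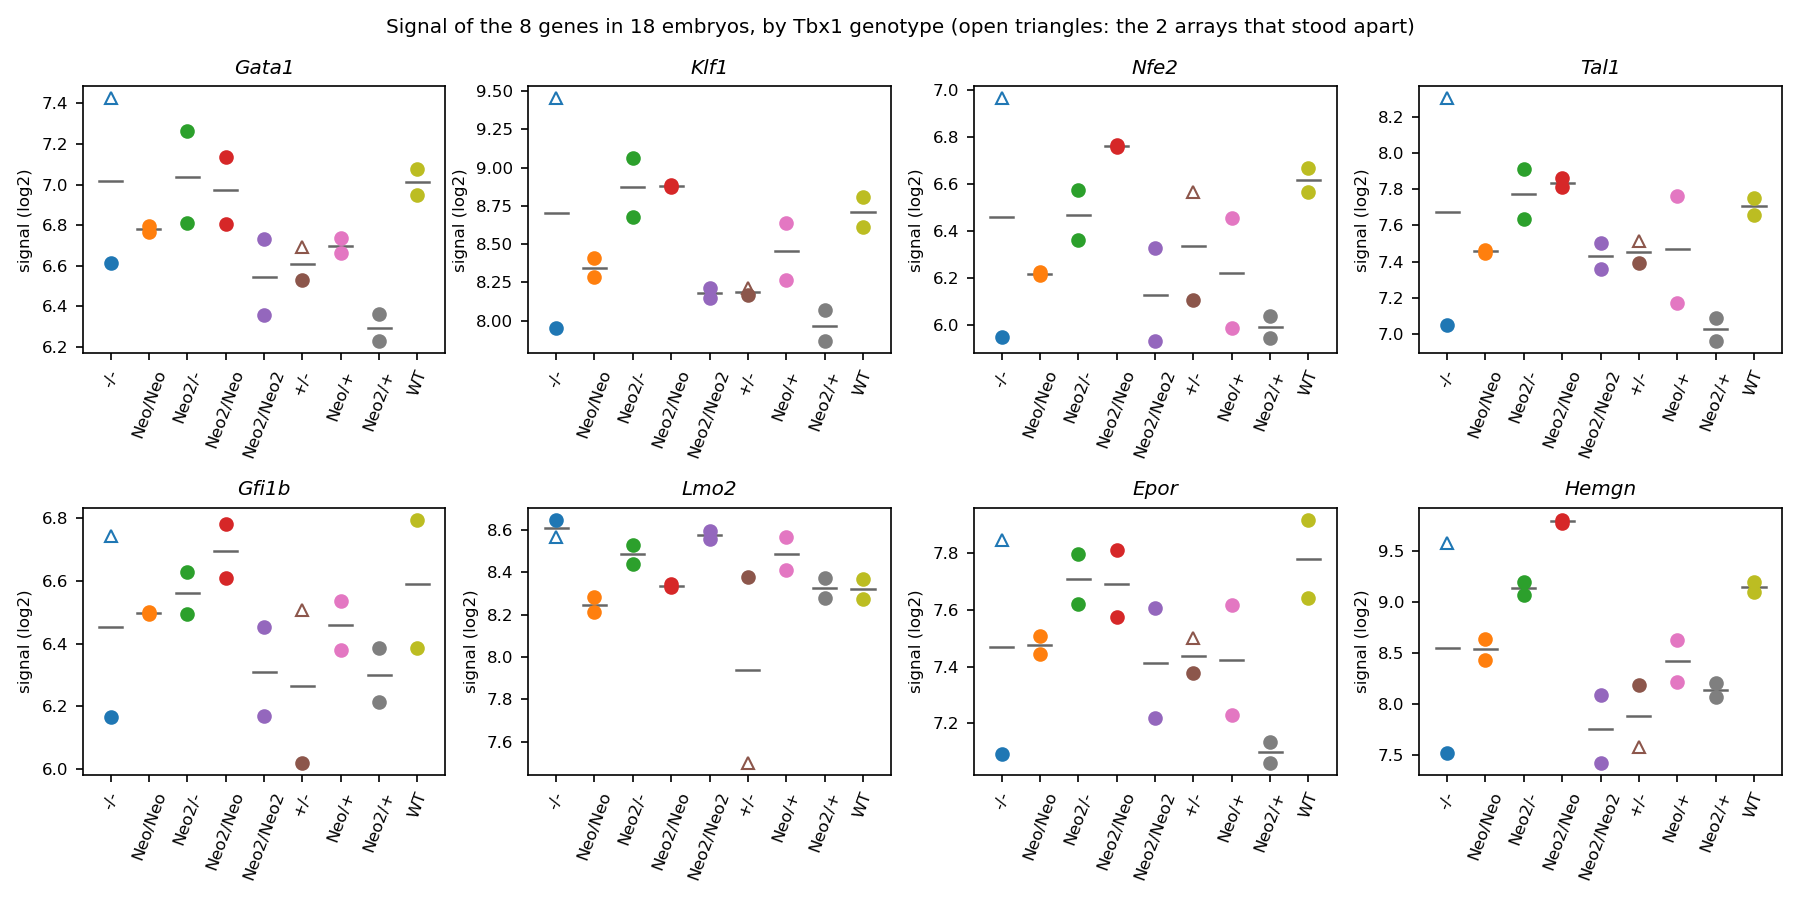
Log2 signal of each of the 8 genes (a panel each) in the 18 embryos, by genotype, with points for embryos and bars for the mean of 2. Open triangles are the 2 arrays that stood apart. Hemgn in Neo2/Neo2 lies below Neo2/Neo, and in 7 of the 8 panels the -/- pair is far apart.

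In the same comparison, of 18 measured red cell products, 15 had a negative difference (median -0.46) and 0 passed limma's test with all arrays. With 16 arrays, where 11.1% of all probe sets were called, 11 of the 18 fell, among them Slc4a1, the band 3 anion exchanger (-1.32, adjusted p = 0.00173), Alas2, the first enzyme of haem synthesis in red cells (-1.06, adjusted p = 0.00942) and the embryonic globin gene Hba-x (-0.49, adjusted p = 0.00903). Of 12 developmental stage genes, 5 fell and 1 rose with all arrays: the neuronal genes Elavl3, Tubb3, Stmn2 and Elavl4 differed by -1.98, -1.91, -2.27 and -1.52, Neurod1 fell too, and Lin28a, which falls as embryos grow older, rose by 2.33 (adjusted p between 0.0129 and 0.0452). Afp, a product of yolk sac endoderm, fell by 3.39 (adjusted p = 0.0208), the 1 called of 9 genes of that tissue. Of the macrophage and megakaryocyte list 1 of 11 fell, Cx3cr1 (-1.10, adjusted p = 0.0115), whose signal was dim, with a mean of 4.30 (log2). All 11 differences were negative. With 16 arrays 5 of these 11 fell, 3 of the 9 yolk sac endoderm genes fell, 6 of the 12 stage genes fell and 1 rose, 4 of 11 genes of other embryo tissues rose and 1 of 10 endothelial genes rose. The mean of the later stage genes was -0.63 in both Neo2/Neo2 embryos, against 0.61 and 0.79 in Neo2/Neo (centred log2). Since these genotypes were chosen as the extremes of maturity in the same data, the differences of the stage genes follow in part from that choice. They are no separate finding. The part of embryo stage or of these other cells in the Hemgn difference was not tested.

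Bach1, a repressor that competes for Nfe2-type sites, fell by 0.37 (adjusted p = 0.0489), the 1 called of 15 partners and other regulators of blood development. Of 9 genes of Epo receptor signalling, which include Jak2, Stat5a, Stat5b and the feedback genes Cish, Socs2 and Socs3, 0 were called with all arrays in limma. With 16 arrays Socs2 rose by 0.44 (adjusted p = 0.0103), and 4 of the 15 partners were called: Myb fell by 0.69, Fli1 fell by 0.55, Bach1 fell by 0.37 and Kit rose by 0.36. These alternatives for the lists were chosen after seeing the data.

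No gene of the 8 was called in -/- against WT (0.0311% of probe sets called), and 0 had an unadjusted p under 0.05 in limma. The median difference was -0.08 over the 8 genes and -0.34 over the 18 red cell products, of which 16 were negative and 0 called. The mean of these products was -0.45 in one -/- embryo and 0.29 in the other (centred log2). For Hemgn, Klf1, Tal1, Nfe2 and Gata1 both WT embryos lay between the 2 -/- embryos. Replicate 1 of -/- exceeded replicate 2 by 2.05 for Hemgn, 1.50 for Klf1, 1.25 for Tal1 and 1.01 for Nfe2. Only 0.22%, 0.755%, 1.46% and 2.96% of all probe sets were as far apart in that pair. The shares were 5.42% for Gata1, 6.56% for Epor, 11.7% for Gfi1b and 77.2% for Lmo2, which differed by -0.08. With 16 arrays Hemgn was called (-1.62, adjusted p = 0.0437; 0.144% of probe sets), and that fit has 1 -/- embryo, replicate 2, which is assumed to vary like the others. Without replicate 2 of -/- and with replicate 1 kept, the direction turned: Hemgn was at 0.43 and not called, and Klf1 was called higher, at 0.75 (adjusted p = 0.0223), where 11.4% of probe sets were called.

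The genotype with the lowest mean for 5 of the genes was Neo2/+. Both Neo2/+ embryos lay below both WT embryos for every gene of the 8 but Lmo2, as for 20.7% of all probe sets, and above them for 0 of the 8 (19.3% of probe sets). The differences were -0.72 for Gata1, -0.68 for Epor, -0.74 for Klf1, -0.63 for Nfe2, -0.68 for Tal1 and -1.01 for Hemgn, and each of these 6 had an unadjusted p under 0.05, while Gfi1b differed by -0.29. None passed after adjustment (lowest adjusted p = 0.687; 0% of probe sets called, with 6.51% at an unadjusted p under 0.05). With 16 arrays none passed either, with a lowest adjusted p of 0.195 (0% of probe sets). The median difference was -0.68 over the 8 genes, -0.52 over the red cell products, of which all 18 were negative, and 0.00 over all probe sets. The macrophage and megakaryocyte list had a median of -0.33, with all 11 differences negative and 0 called by limma, and its part in these differences was not tested.

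In the other comparisons with WT 0 of the 8 genes were called by limma. The median differences were -0.29 in Neo/+ (0.0311% of probe sets called), -0.36 in +/- (0%), -0.42 in Neo2/Neo2 (0.00222%), 0.12 in Neo2/Neo (0.00222%), 0.00 in Neo2/- (0.00222%) and -0.28 in Neo/Neo (0.0822%). The number with an unadjusted p under 0.05 was 1 in +/- and 1 in Neo2/Neo2, Hemgn in both, and 0 in the other 4. Hemgn was called in Neo2/Neo2 against WT with 16 arrays (-1.39, adjusted p = 0.0179; 2.02% of probe sets). These comparisons share the 2 WT embryos.

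**Figure D2:**
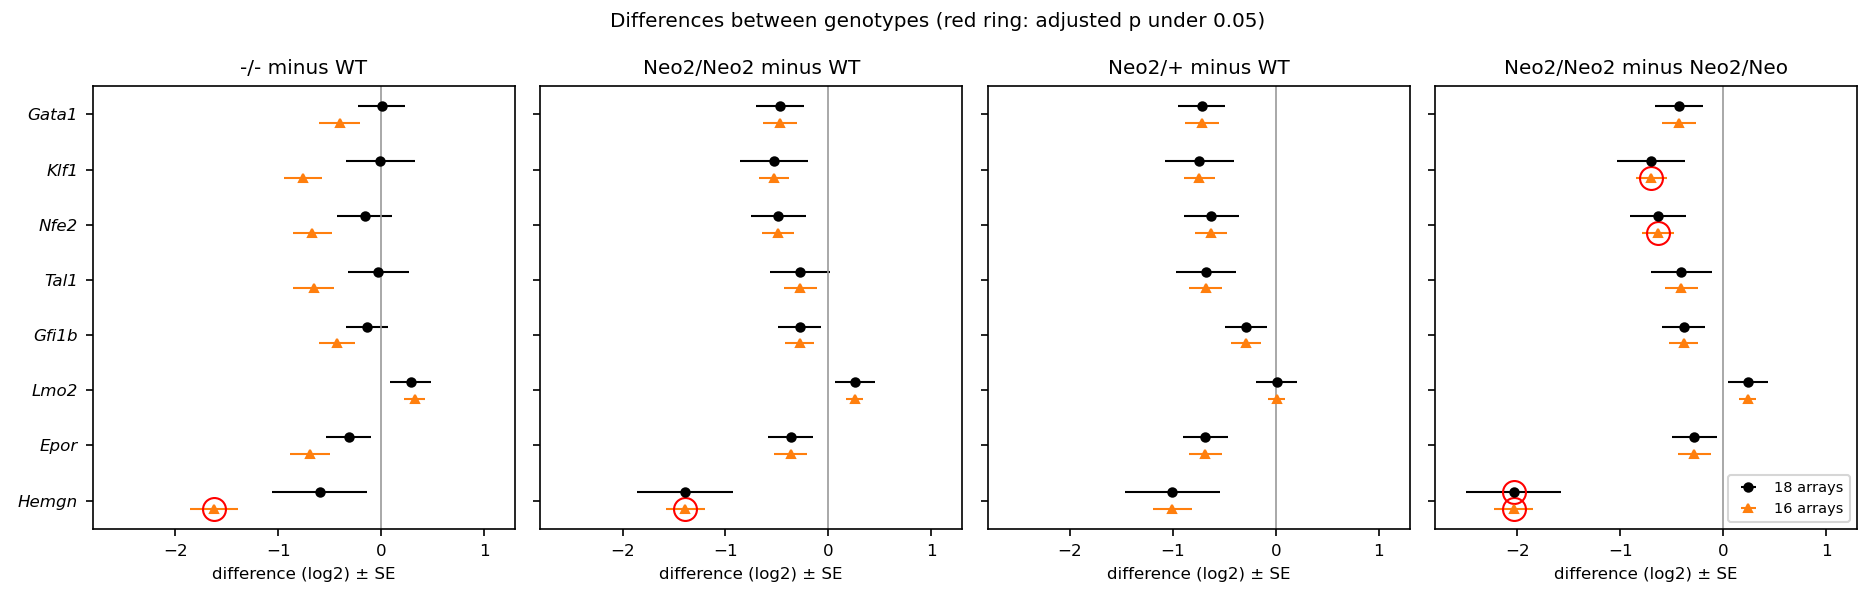
Difference in log2 signal with its SE for the 8 genes in 4 comparisons, with all 18 arrays (circles) and with 16 (triangles). Red rings mark adjusted p under 0.05. With all arrays only Hemgn in Neo2/Neo2 minus Neo2/Neo is ringed.

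No gene was called by the number of Tbx1 alleles of any kind or by the Tbx1 signal. In 0 against 1 wild-type allele (10 and 6 embryos) all 8 differences were positive, from 0.16 to 0.61, with an adjusted p of 0.888 for each (0% of probe sets called). Gata1 alone had an unadjusted p under 0.05 (0.34). All 8 differences stayed positive with 16 arrays, from 0.04 to 0.40, and 0 were called (0% of probe sets). The embryos with 0 wild-type alleles include the Neo2/Neo2 arrays, whose Tbx1 signal was at the WT level (6.62 and 6.62). This comparison is therefore of allele labels and not of Tbx1 level. Per Neo2, Neo and null allele, 0 of the 8 were called or had an unadjusted p under 0.05 (0%, 0.0688% and 0.00222% of probe sets called). On the Tbx1 signal 0 were called (0.00222%), and Gata1 had a slope of -0.23 (adjusted p = 0.566). Its slope was -0.14 with 16 arrays (adjusted p = 0.909 in limma). Over all 9 genotypes, limma's F-test called 0 of the 8 (0.275% of probe sets), with the lowest adjusted p for Hemgn, 0.248. With 16 arrays it called Hemgn and Klf1 (adjusted p = 0.00553 and 0.0298; 2.77% of probe sets), and 7 of the 18 red cell products.

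For Gata1, Klf1, Nfe2 and Gfi1b no neighbours in the order differed by more than the SD within genotypes. For Tal1, Lmo2 and Epor 1 pair of neighbours did, and for Hemgn 2. The share of variance between genotypes was 72.5% for Hemgn and between 42.5% and 64.6% for the others, with a median of 55.0% over all probe sets. With 16 arrays it was 95.4% for Hemgn and from 75.4% to 90.3% for the others, with a median of 64.9% over all probe sets.

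The genes varied together from embryo to embryo, apart from Lmo2. Of 28 pairs of genes, all 21 without Lmo2 passed a two-sided permutation test on Pearson's r over 18 embryos. Their r was from 0.64 to 0.94 (median 0.84, adjusted p from 3.11e-05 to 0.00584 in that permutation test), and Spearman's rho from 0.67 to 0.94. Tal1 and Klf1 had the highest r, 0.94. Without the 2 embryos farthest from the median of the first gene, r lay between 0.62 and 0.91. Without the 2 arrays that stood apart, all 21 passed again. Within genotypes, the median r was 0.82, and without the -/- pair 0.54 (-0.10 to 0.79), an alternative chosen after seeing the data. Of the 7 pairs with Lmo2, 0 passed the permutation test on r (r from -0.21 to 0.14) or on rho.

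Lmo2, the LIM-domain bridge of the Tal1 and GATA complex, is also made in endothelium. It had 8.57 and 8.65 in -/-, 8.28 and 8.21 in Neo/Neo and 8.44 and 8.53 in Neo2/- embryos. The Neo2/Neo embryos had 8.35 and 8.33, and those of Neo2/Neo2 had 8.56 and 8.59. Embryos with 1 wild-type allele had 7.50 and 8.38 in +/-, 8.41 and 8.57 in Neo/+ and 8.28 and 8.38 in Neo2/+. The WT embryos had 8.27 and 8.37. Replicate 1 of +/-, 1 of the arrays that stood apart, is the lowest of all 18. Both embryos of -/-, Neo2/Neo2, Neo2/- and Neo/+ lie above both WT embryos. None of these differences passed the test (0.29, 0.26, 0.17 and 0.17). With the mean of 10 endothelial genes, Lmo2 had an r of 0.19 (adjusted p = 0.350, permutation) and a rho of 0.61 (adjusted p = 0.0177), and r was 0.74 without the 2 arrays and -0.04 without the 2 embryos farthest from its median. The other 7 genes had r between -0.74 and -0.55 with that list (adjusted p from 0.0012 to 0.0199 by permutation, over 40 relations with lists chosen after seeing the data). Their rho was from -0.76 to -0.53 (adjusted p from 0.0019 to 0.0381, permutation). Without the 2 embryos farthest from each gene's median these r lay between -0.72 and -0.41. Without the 2 arrays that stood apart they lay between -0.80 and -0.52. Gata1 and Tal1 then no longer passed (adjusted p = 0.0564 and 0.0540, permutation). Within genotypes and without the -/- pair they lay between -0.74 and -0.09. With the mean of 11 genes of other embryo tissues, Lmo2 had an r of 0.57 (adjusted p = 0.0298, permutation). Its rho was 0.48 (adjusted p = 0.0614). That r was 0.65 without the 2 arrays and 0.14 without the 2 embryos farthest from the Lmo2 median. With this list too the r of the other 7 genes was negative, from -0.69 (Nfe2) to -0.46 (Hemgn). Nfe2, Gfi1b, Tal1 and Klf1 passed the permutation test on r (adjusted p from 0.00489 to 0.0471). On rho, Gfi1b, Nfe2 and Hemgn passed. These r lay between -0.71 and 0.28 within genotypes and without the -/- pair.

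**Figure D3:**
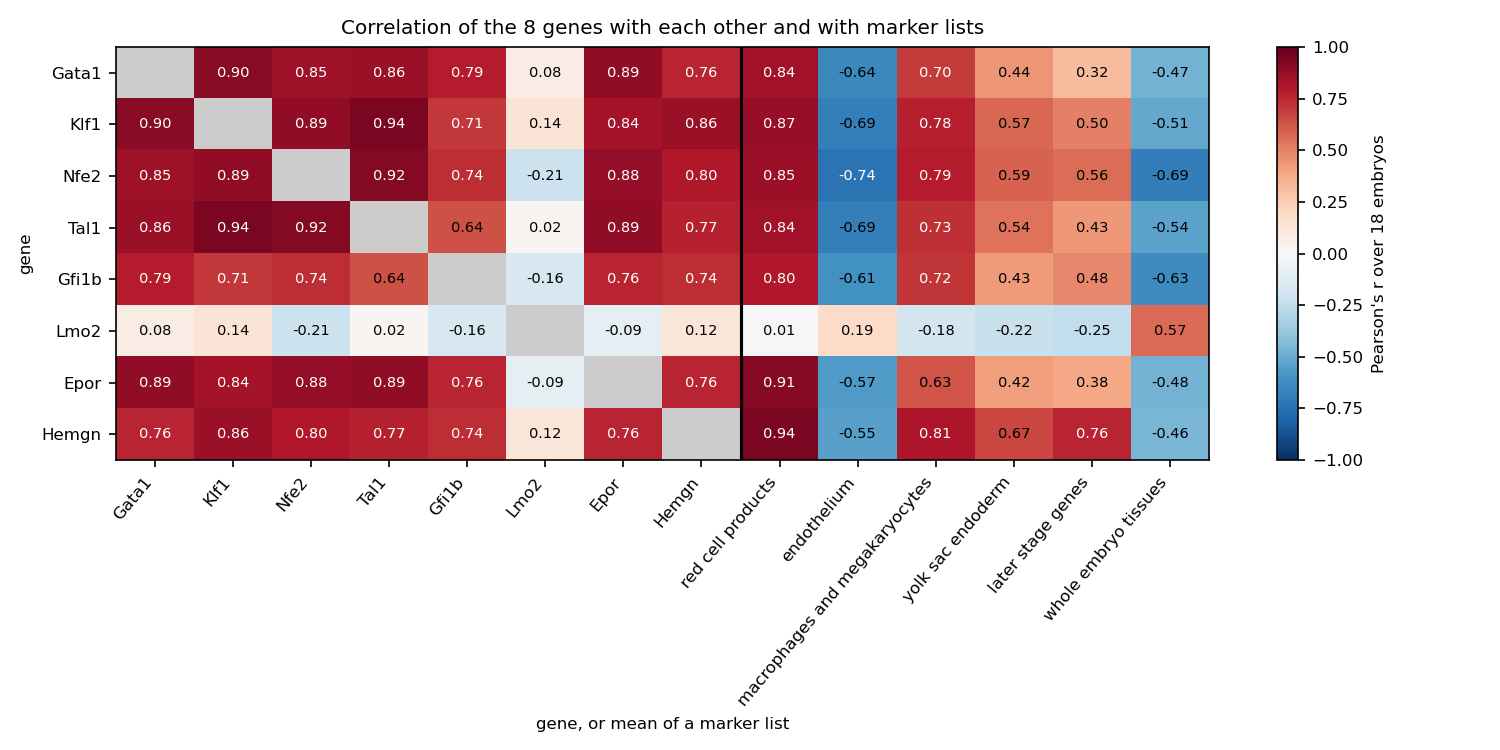
Pearson's r over 18 embryos of each gene (rows) with the others and with the mean of 6 marker lists (columns). Lmo2's row is pale except for the whole embryo tissues list (r of 0.57), while the other genes' r with the red cell products lies between 0.80 and 0.94.

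The red cell products followed 7 of the genes. With the mean of 18 measured products, r was 0.94 for Hemgn, 0.91 for Epor, 0.87 for Klf1, 0.85 for Nfe2, 0.84 for Gata1 and Tal1 and 0.80 for Gfi1b (adjusted p at most 8e-05 over 8 relations, permutation; rho from 0.76 to 0.94). For Lmo2 r was 0.01 (adjusted p = 0.982). Without the 2 embryos farthest from each gene's median the 7 were between 0.82 and 0.93. The lowest p that the permutations can give is 1e-05. Hemgn also had an r of 0.76 (adjusted p = 0.00208, permutation) with the later stage genes, where rho was 0.67 (adjusted p = 0.00789). With the macrophage and megakaryocyte list its r was 0.81 (adjusted p = 0.0018, permutation) and its rho 0.84 (adjusted p = 0.00187). In that list the macrophage genes Ptprc and Cx3cr1 averaged 3.93 and 4.30 (log2). Without the 2 embryos farthest from the Hemgn median these r were 0.63 and 0.74. Within genotypes and without the -/- pair they were -0.0045 and -0.22, against 0.78 for Hemgn with the red cell products, and leaving out that pair was added once the data had been seen. The macrophage and megakaryocyte list was not particular to Hemgn. Its r with the 7 genes was between 0.63 (Epor) and 0.81 (adjusted p from 0.0018 to 0.0134, permutation). Within genotypes and without the -/- pair these r were between -0.22 and 0.34. With the yolk sac endoderm list Klf1, Nfe2, Tal1 and Hemgn passed the permutation test on r (0.54 to 0.67). Nfe2 passed with the later stage genes too (r of 0.56, adjusted p = 0.0295, permutation). The part of these lists in the correlations was not tested.

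**Figure D4:**
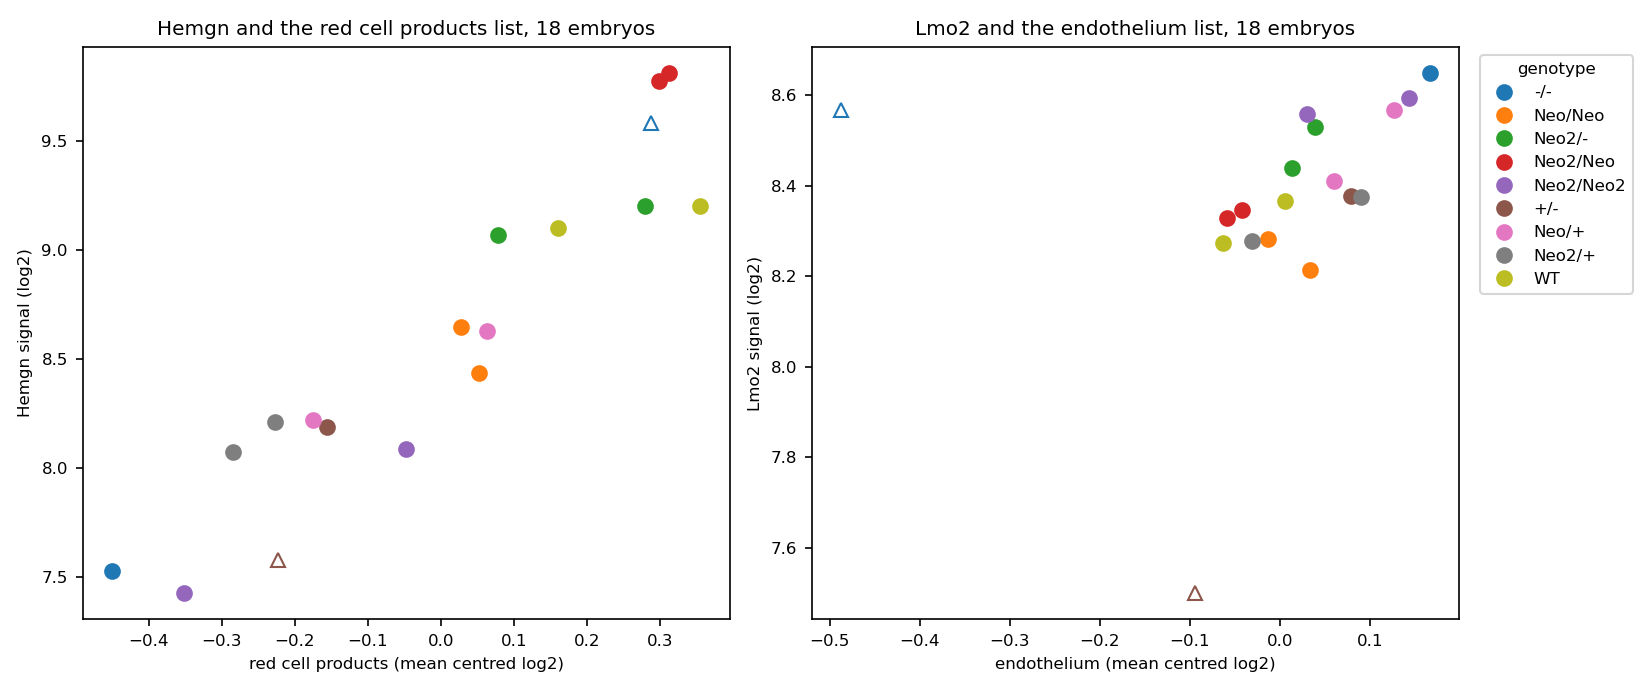
Hemgn (left) and Lmo2 (right) in log2 signal against the mean centred log2 value of the red cell products and of the endothelium list, with a point per embryo coloured by genotype. Hemgn is higher in embryos with more of the red cell products across genotypes (r of 0.94), and the open triangles show the 2 arrays that stood apart.

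Among 10671 genes with a mean of at least 6 (log2), the 5 most like the mean profile of the 8 genes over 18 embryos were Car2 (r of 0.97), the red cell carbonic anhydrase, Fech (0.97), the last enzyme of haem synthesis, Alas2 (0.96), Fth1 (0.95), a ferritin chain, and Acp5 (0.95), an acid phosphatase. The 3 least like were Polr3b (-0.89), Bri3bp (-0.89) and Tmem214 (-0.88). Of the products, Fech and Alas2 were in place 2 and 3, the embryonic globin genes Hba-x and Hbb-bh1 in place 16 and 28, the third such gene, Hbb-y, in place 700 (r of 0.54), and Tfrc, the transferrin receptor, in place 2766.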

How the data were processed

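The deposited table holds log2 signals of 45037 probe sets on 18 arrays, which the authors made with RMA of the affy package, according to the submitters' processing notes. Versions are not given in the sources used. RMA corrects background, equalises the arrays by quantile normalization and summarises each probe set, and it gives no call of presence, so that dim signals may be background. The number of arrays limits the precision. Values were used as deposited.

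Probe sets were named from the platform annotation, which gave 1 symbol to 34945, and a gene was read at its brightest probe set. Genotypes were compared with limma 3.58.1 in R 4.3.3 (lmFit, eBayes) on all probe sets, with 9 genotype means, 9 residual and 3.63 prior degrees of freedom, two-sided. Adjustment was by Benjamini-Hochberg over all of them, with a threshold of 0.05. Separate fits used the number of wild-type alleles, the counts of the 3 mutant alleles, and the Tbx1 signal. Correlations used 100000 permutations. A list value is the mean of its genes' centred log2 signals. The limma fits were tested on simulated data.

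The 8 genes, the lists and the comparison of Neo2/Neo2 with Neo2/Neo were chosen with earlier results of these data known. Named are the 8 genes, up to 4 genes per list with the smallest F-test p, Tbx1, and the 5 most and 3 least like genes. Other genes were named after their values were seen. Some genes of the lists are not reported here. Replicate numbers were checked for pairing: the differences between replicates correlated between genotypes from -0.26 to 0.19 (median 0.04). Of these 36 correlations, 9 were above 0.1. The main fits used no pairing, and low correlations between single differences cannot exclude a weak shared batch. Alternatives were a replicate block, embryo sex, 16 arrays, an intensity trend with robust estimates, array weights, a minimum mean of 6, arrays shifted to one median, all probe sets of a gene, the arrays of 2 genotypes, and leaving out each array.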

Additional observations from a re-analysis of the deposited data

Results flagged for a closer look

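Lmo2 in replicate 1 of +/- had a signal of 7.50 (log2), the lowest of the 6 embryos with 1 wild-type allele, and the nearest of the others was at 8.28. The gap was 0.729 of the range of the 6 values, beyond what Dixon's test allows at the 95% level. Chance marks about 1 in 20 such groups, and 16 groups were examined (8 genes, 0 or 1 wild-type allele). This is 1 of the 2 arrays that stood apart.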

How the results depend on the processing

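Of 14 comparisons in which 0 of the 8 genes were called with all arrays, 10 stayed at 0 under every alternative run. Over 9 genotypes the count was 1 with array weights. It also rose above 0 without the 2 arrays that stood apart and in some fits without 1 array, which leave only 1 embryo in a genotype. In -/- against WT it was 1 without the 2 arrays (Hemgn) and 0 to 1 without 1 array (Klf1, higher, without replicate 2 of -/-), in Neo2/Neo2 against WT 1 without the 2 arrays, and in +/- against WT 0 to 1 without 1 array (Lmo2, without replicate 2). In Neo2/Neo2 against Neo2/Neo, where 1 gene was called, the count was 3 without the 2 arrays and with array weights, 4 with the arrays of these 2 genotypes alone, 0 with embryo sex and with an intensity trend (Hemgn at an adjusted p of 0.0660 and 0.0637), and 0 to 2 without 1 array. Hemgn was called in 7 of the 9 settings other than leaving out 1 array. These settings are not separate tests of its difference. Hemgn has 1 probe set, so the setting with all probe sets of a gene used the same Hemgn values. Leaving out arrays of other genotypes also kept its difference at -2.04 and could change only the estimated spread and the adjustment. With the replicate block the count was 1, as without it, and Hemgn differed by -2.04 (adjusted p = 0.0311); the block changed no other call. In -/- against WT signs turned: Gata1 was at -0.40 without the 2 arrays, and Klf1 and Tal1 at 0.043 and 0.021 with arrays shifted to one median. Without 1 array Gata1 ranged from -0.40 to 0.41, Klf1 from -0.76 to 0.75, Tal1 from -0.65 to 0.60, Nfe2 from -0.67 to 0.35, Gfi1b from -0.43 to 0.15, Epor from -0.69 to 0.065 and Hemgn from -1.62 to 0.43. The median r was 0.77 over the 28 pairs and 0.85 with the red cell products, and 0.41 and 0.60 within genotypes without the -/- pair, which was added after the data had been seen. The cause of these changes was not tested.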
